A study of Mus musculus with 12 samples.

Results

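The expression of 8 genes of phosphoinositide 3-kinase (PI3K) and AKT signaling was followed in nuclear RNA of adult mouse heart muscle cells. They are the catalytic subunit genes Pik3ca, Pik3cb, Pik3cd and Pik3cg, the regulatory subunit genes Pik3r1 and Pik3r2, and the kinase genes Akt1 and Akt2. They were taken by gene symbol, not by their values, and all 8 were found among the 46983 symbols of the deposited count table. All 8 also passed the filter on low counts, which left 17715 genes for testing. The control group was adult Myh6-MCM mice given tamoxifen, and the YAP5SA group was adult Yap5SA+/tg; Myh6-MCM mice given tamoxifen. Myh6-MCM is a Cre recombinase, switched on by tamoxifen and driven by the promoter of Myh6, a cardiac myosin gene. Both groups therefore carried the Cre and received the drug. YAP5SA carries alanine in place of the serines through which the Hippo pathway restrains YAP, a co-activator of transcription. Beads against PCM1, a protein of centriolar satellites that marks heart muscle nuclei, were used to capture the nuclei. The sources used here do not give the interval between tamoxifen and collection, or whether animals were pooled. Each group had 2 libraries, with total counts from 7850661 to 15012122, and the ATAC-seq and 4C-seq samples were not analysed here.

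Class I PI3K enzymes are made of a catalytic and a regulatory subunit. They phosphorylate a membrane lipid, and the product recruits AKT kinases to the membrane, where they are activated and promote growth, survival and glucose uptake. The alpha and beta catalytic subunits are widely expressed, while the delta and gamma subunits are best known from leukocytes. In the heart the alpha subunit is known for its part in insulin and growth factor signaling and physiological growth. Pik3cb is a known target of YAP in the heart.

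The libraries differed in ways that bear on these genes. Over the tested genes the median absolute log2 difference between replicates was 0.383 for control and 0.158 for YAP5SA. All 8 cardiomyocyte markers examined, among them Myh6, Tnnt2 and Ryr2, had counts in every library. Their summed level was 32861 and 68373 CPM in control and 23558 and 25064 CPM in YAP5SA, where CPM is counts scaled to a common library total, after TMM. Most of that sum is Ttn, at 19901 and 48149 CPM in control and 15501 and 16678 CPM in YAP5SA. Myh6 measured 4832 and 6614 CPM in control and 2144 and 2240 CPM in YAP5SA. Tnnt2, the least changed of the 8, measured 2061 and 2288 CPM in control and 1901 and 1769 CPM in YAP5SA. The log2 fold changes of the 8 markers ran from -1.60 to -0.24, with a median of -1.03. At an edgeR adjusted p under 0.05, 0 of them fell, beside 0.999% of all tested genes. Markers of other cells were present too. The 7 fibroblast markers summed to 5580 and 4177 CPM in control and 3608 and 4438 CPM in YAP5SA. Most of that sum is Col1a1, Col1a2 and Postn, with log2 fold changes of -0.39, -0.38 and -0.43. Lum and Dcn had positive log2 fold changes (1.16 and 0.66), and the other fibroblast markers had negative ones. The 8 leukocyte markers summed to 214 and 259 CPM in control and 861 and 962 CPM in YAP5SA, and the 8 endothelial markers to 1483 and 1061 CPM in control and 778 and 736 CPM in YAP5SA. The 6 smooth muscle and pericyte markers summed to 1530 and 1396 CPM in control and 851 and 781 CPM in YAP5SA. Of 9 genes of the response to tissue dissociation 1 rose and 2 fell, beside 3.12% and 0.999% of all tested genes. Fos rose (log2 fold change 1.54, edgeR adjusted p = 0.0337). The heat shock genes Hspa1a and Hspa1b fell by 3.56 and 2.77 on the log2 scale (edgeR adjusted p = 0.0166 and 0.0287). They are near-identical copies, and their reads may be split between them. The log2 fold change was positive for 2 of the 9 genes, with a median of -0.72. That median was -1.15 without control replicate 1 and 0.10 without control replicate 2. The 9 genes summed to 479 and 891 CPM in control and 541 and 550 CPM in YAP5SA. The part of these differences in the levels of the 8 genes was not tested. In nuclei prepared in bulk, more cells of a type and more RNA per cell cannot be told apart.

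Promoter sequences of the genes whose levels differed most between the groups are shown with that of Pik3ca, whose level differed little. Each window runs from 250 bases before to 50 bases after a transcription start in RefSeq (build GRCm38.p6, the assembly called mm10). The letters are given 5′ to 3′ on the strand of the gene. Capitals mark GGAATG or its reverse complement CATTCC, the core of the motif bound by TEAD factors, the DNA-binding partners of YAP. Of 3 windows listed for Pik3cd the one that holds the motif is printed, and of 2 listed for Pik3cg the one farther upstream.
Pik3ca (chr3:32396815-32397114, plus strand): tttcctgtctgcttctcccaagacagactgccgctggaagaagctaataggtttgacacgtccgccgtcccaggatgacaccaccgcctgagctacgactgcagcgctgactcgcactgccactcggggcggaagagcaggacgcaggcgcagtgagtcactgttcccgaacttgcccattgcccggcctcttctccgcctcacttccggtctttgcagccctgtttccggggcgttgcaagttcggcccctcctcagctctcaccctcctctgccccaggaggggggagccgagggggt
Pik3cb (chr9:99140162-99140461, minus strand): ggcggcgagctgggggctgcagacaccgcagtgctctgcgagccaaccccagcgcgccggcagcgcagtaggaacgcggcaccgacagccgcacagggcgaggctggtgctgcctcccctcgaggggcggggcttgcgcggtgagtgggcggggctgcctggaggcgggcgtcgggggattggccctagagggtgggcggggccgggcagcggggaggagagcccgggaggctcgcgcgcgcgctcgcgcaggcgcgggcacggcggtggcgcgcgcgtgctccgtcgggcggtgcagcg
Pik3cd (chr4:149676040-149676339, minus strand): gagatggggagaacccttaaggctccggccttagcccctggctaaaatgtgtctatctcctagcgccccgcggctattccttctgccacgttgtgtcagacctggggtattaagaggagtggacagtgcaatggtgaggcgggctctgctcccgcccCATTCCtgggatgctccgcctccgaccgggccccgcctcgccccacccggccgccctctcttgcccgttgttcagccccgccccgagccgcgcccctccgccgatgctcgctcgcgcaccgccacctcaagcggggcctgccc
Pik3cg (chr12:32208610-32208909, minus strand): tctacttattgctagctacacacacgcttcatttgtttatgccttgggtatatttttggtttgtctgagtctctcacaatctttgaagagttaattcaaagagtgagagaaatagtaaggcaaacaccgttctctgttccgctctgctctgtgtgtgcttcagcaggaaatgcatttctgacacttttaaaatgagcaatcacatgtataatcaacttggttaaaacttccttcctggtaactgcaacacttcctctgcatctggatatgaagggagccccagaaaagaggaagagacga

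The Pik3cb window was rich in G and C (79.0%) and held 44 CpG dinucleotides, against 63.3% and 20 in Pik3ca. The Pik3cg window was poor in both, with 40.7% and 4 CpG dinucleotides. Over all 32851 windows of the table the medians were 52.7% and 7. The Pik3cd window was printed because it holds the motif, searched on both strands, with its first base at position -93 from the start. The other windows listed for Pik3cd did not hold the motif. Nor did any window listed for Pik3ca, Pik3cb or Pik3cg. Of the 16 windows listed for the 8 genes, 5 held it, which is to be read beside 14.7% of all windows of 300 bases. Those 5 belong to Akt2, Pik3cd, Pik3r1 and Pik3r2. These matches describe the letters of the windows only.

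Among the catalytic subunit genes, Pik3cd and Pik3cg rose in YAP5SA and no member fell. Pik3cd was 2.55-fold and Pik3cg 3.28-fold higher, while Pik3cb was 1.84-fold higher without passing the threshold and Pik3ca was at 0.910 times its control level. Of the 8 genes, 2 passed upward, beside 3.12% of all tested genes, and 0 passed downward with edgeR, DESeq2 or limma-voom, beside 0.999% with edgeR. At an unadjusted p under 0.05, 3 were higher and 0 lower, beside 12.7% and 10.9% of all genes. The groups did not overlap, with YAP5SA above, for 4 of the 8 (28.1% of all genes), and with YAP5SA below for 1 (28.3%). The number past the threshold upward changed with the library left out, as did the number over all genes. Such counts are therefore not read as a result about the 8 genes. The median log2 fold change was 0.19 over the 8 genes and -0.06 over all genes tested, and the former was 0.41 without control replicate 1 and 0.10 without control replicate 2.

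**Figure D1:**
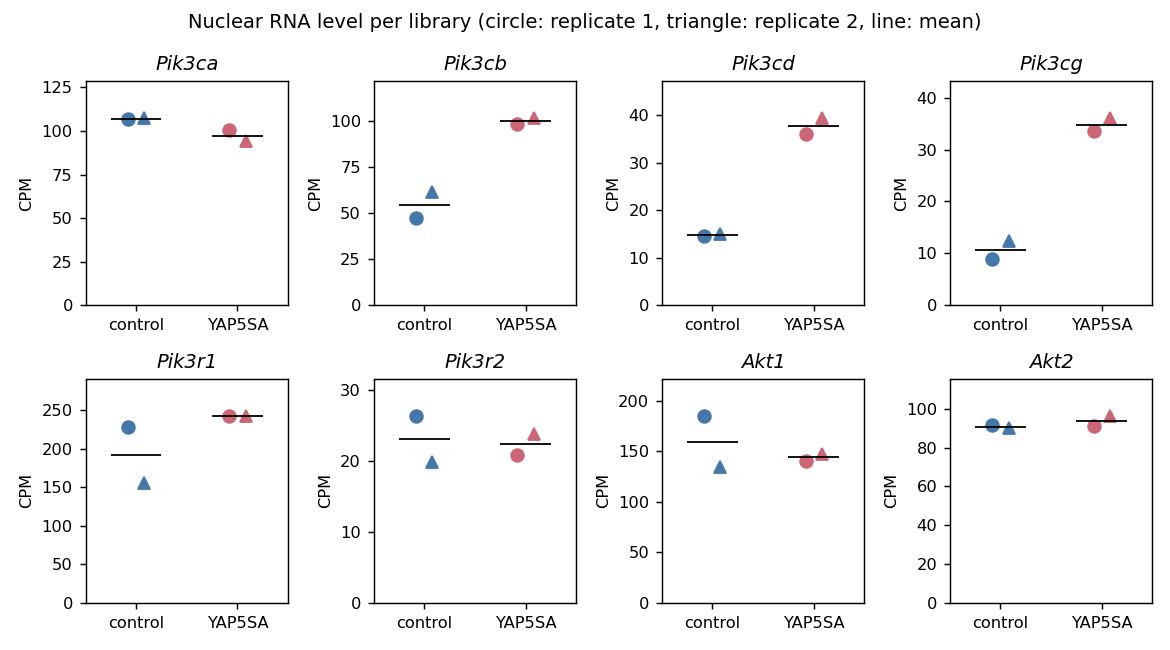
Level of each of the 8 genes in CPM (vertical axes, each starting at 0) in the 2 control and 2 YAP5SA libraries, with circles for replicate 1, triangles for replicate 2 and lines at the group means. The YAP5SA libraries lie well above the control libraries for Pik3cb, Pik3cd and Pik3cg, and the control libraries lie apart from each other for Pik3r1 and Akt1.

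Pik3cd encodes the delta catalytic subunit (chromosome 4, 149649168 to 149702571, minus strand, mm10). It measured 14.5 and 15.1 CPM in control and 36.0 and 39.3 CPM in YAP5SA, from 160, 114, 534 and 518 counts. Both YAP5SA libraries stood above both controls by far more than either pair differed. The mean of 14.8 ± 0.409 CPM in control stood against 37.7 ± 2.37 CPM (SD, n = 2), and the log2 fold change was 1.35 (SE 0.173, edgeR adjusted p = 0.0305). Of all genes tested, 4.30% had a larger log2 fold change.

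Pik3cg encodes the gamma catalytic subunit, which is activated by G protein-coupled receptors (chromosome 12, 32173473 to 32208659, minus strand). It measured 8.97 and 12.3 CPM in control and 33.5 and 36.0 CPM in YAP5SA, from 99, 93, 497 and 474 counts. The controls were 1.37-fold apart, and both lay well below the YAP5SA libraries. Its log2 fold change was 1.72 (SE 0.224, edgeR adjusted p = 0.0313). The calls of Pik3cd and Pik3cg were both lost when 1 YAP5SA library was left out, with adjusted p of 0.173 and 0.121 without replicate 1 and 0.347 and 0.257 without replicate 2 (edgeR). The log2 fold change lay between 1.30 and 1.44 for Pik3cd and between 1.51 and 1.99 for Pik3cg over the fits that left out 1 library.

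Pik3cb encodes the beta catalytic subunit, which responds to G protein-coupled receptors as well as receptor tyrosine kinases (chromosome 9, 99036654 to 99140621, minus strand). It measured 47.6 and 61.6 CPM in control and 98.6 and 102 CPM in YAP5SA, from 526, 466, 1463 and 1339 counts. Both YAP5SA libraries were above both controls, and the controls were 1.29-fold apart. The log2 fold change was 0.88 (SE 0.189, 95% interval 0.40 to 1.35), and its edgeR adjusted p of 0.0682 missed the threshold of 0.05, at an unadjusted p of 0.00451. The gene did pass in DESeq2 (adjusted p = 0.0172) and in edgeR when no filter on low counts was used (adjusted p = 0.00224). Its log2 fold change was 0.71 without control replicate 1 and 1.11 without control replicate 2. Leaving out YAP5SA replicate 1 gave 0.92, and leaving out YAP5SA replicate 2 gave 0.87. Whether Pik3cb passed changed with the library left out, and such fits take their spread from the group left whole. The log2 fold change was positive in all 12 alternatives, from 0.71 to 1.11.

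Pik3ca encodes the alpha catalytic subunit (chromosome 3, 32397671 to 32468486, plus strand). It measured 106.8 and 107 CPM in control and 100.5 and 94.2 CPM in YAP5SA. Both YAP5SA libraries were slightly lower, with a log2 fold change of -0.14 (SE 0.153, 95% interval -0.52 to 0.25; edgeR adjusted p = 0.634).

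**Figure D2:**
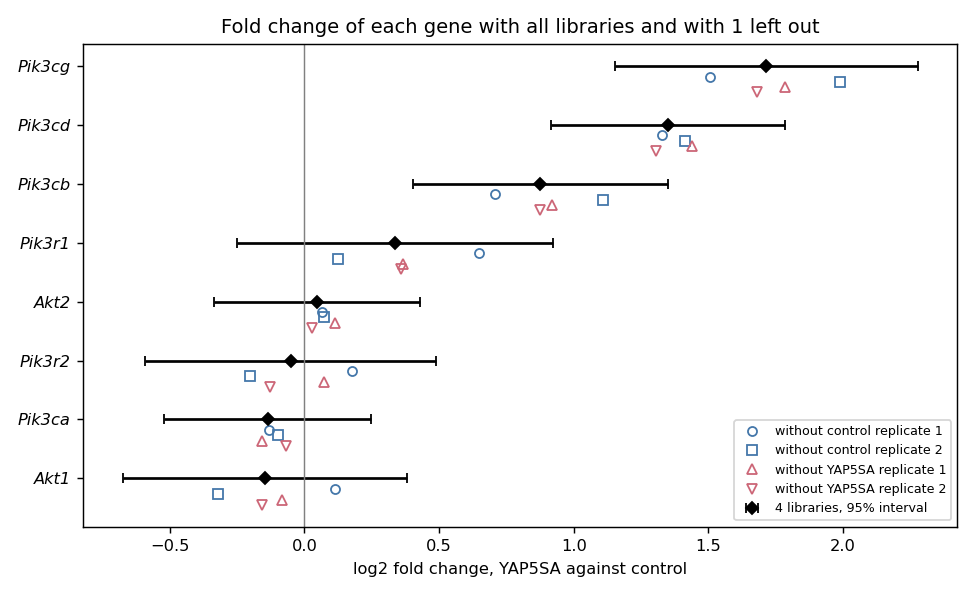
Log2 fold change (horizontal axis) of the 8 genes from all 4 libraries, as black diamonds with 95% intervals, and open symbols for fits that left out 1 library. The open symbols of Pik3cb, Pik3cd and Pik3cg all lie at 0.71 or above, and those of Akt1 and Pik3r2 lie on both sides of 0.

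The regulatory subunit genes did not pass. Pik3r1 encodes p85 alpha and shorter forms, which hold the catalytic subunit and link it to phosphorylated receptors (chromosome 13, 101680563 to 101768217, minus strand). It measured 228 and 156 CPM in control and 243 and 242 CPM in YAP5SA. The YAP5SA libraries agreed closely and lay above both controls, which were 1.47-fold apart, and the log2 fold change was 0.34 (SE 0.234, edgeR adjusted p = 0.431). Without control replicate 1 it was 0.65, and without control replicate 2 it was 0.12.

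Pik3r2, which encodes p85 beta (chromosome 8, 70768176 to 70776713, minus strand), measured 26.3 and 19.8 CPM in control and 20.8 and 23.8 CPM in YAP5SA. The groups overlapped, and the log2 fold change was -0.05 (SE 0.216, 95% interval -0.59 to 0.49; edgeR adjusted p = 0.912). Its exons overlap those of 6330537M06Rik on the opposite strand, and since the strand setting of the counting is not given, reads of these genes cannot be told apart.

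The AKT genes did not pass either. Akt1, whose kinase is known for growth and survival signals (chromosome 12, 112653821 to 112674884, minus strand), measured 185 and 134 CPM in control and 141 and 147 CPM in YAP5SA. Both YAP5SA values fell between the controls, and the log2 fold change was -0.15 (SE 0.210, 95% interval -0.67 to 0.38; edgeR adjusted p = 0.713). Without control replicate 1 its sign turned, to 0.11. Akt2, whose kinase is known for insulin-stimulated glucose uptake (chromosome 7, 27591552 to 27640826, plus strand), measured 91.4 and 89.9 CPM in control and 91.04 and 96.2 CPM in YAP5SA. Its groups overlapped, with a log2 fold change of 0.05 (SE 0.153, 95% interval -0.34 to 0.43; edgeR adjusted p = 0.885).

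Levels were compared between genes per kilobase of exon, which takes exonic counting as given. In control the order by mean CPM per kilobase was Akt1 (38.9), Pik3r1 (19.04), Akt2 (12.7), Pik3ca (11.8), Pik3cb (7.59), Pik3r2 (5.52), Pik3cd (2.36) and Pik3cg (1.26). No neighbours in this order overlapped in their 2 libraries. In YAP5SA the order was Akt1 (35.2), Pik3r1 (24.1), Pik3cb (13.9), Akt2 (13.1), Pik3ca (10.7), Pik3cd (6.02), Pik3r2 (5.34) and Pik3cg (4.12), again without overlap between neighbours. With the length of the longest transcript in place of all exons, Akt2 (20.6) stood above Pik3cb (15.5) in YAP5SA. Pik3cb and Pik3r2 then overlapped in control, as did Pik3cd and Pik3r2 in YAP5SA.

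Within the class I catalytic genes, Pik3ca held the largest share of counts per kilobase in control and Pik3cb in YAP5SA. Without the length correction Pik3ca and Pik3cb overlapped in YAP5SA, at 37.4% and 34.7% against 36.7% and 37.5% of counts. The share of Pik3ca was 54.0% and 48.7% in control and 32.1% and 29.6% in YAP5SA, while its CPM differed little. The share of Pik3cb was 32.9% ± 3.47 in control and 40.03% ± 0.405 in YAP5SA (SD, n = 2). For Pik3cd the share was 10.3% ± 0.499 and 17.3% ± 0.886, and for Pik3cg 5.46% ± 0.799 and 11.9% ± 0.465 (SD, n = 2). The ratio of Pik3cb to Pik3ca per kilobase, which does not depend on how libraries are scaled, was 0.564 and 0.726 in control and 1.24 and 1.36 in YAP5SA. That is a 2.03-fold higher ratio, with no overlap between the groups. With 2 libraries against 2 the smallest p that a two-sided exact permutation test can give is 0.333, and this ratio reached it (adjusted over 4 ratios, 0.444). The ratio of Pik3cg to Pik3cd was 0.460 and 0.606 in control and 0.691 and 0.680 in YAP5SA, and that of Pik3r2 to Pik3r1 was 0.278 and 0.308 in control and 0.207 and 0.237 in YAP5SA. Neither pair of groups overlapped. The ratio of Akt2 to Akt1 was 0.284 and 0.385 in control and 0.371 and 0.375 in YAP5SA, so those groups did overlap.

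**Figure D3:**
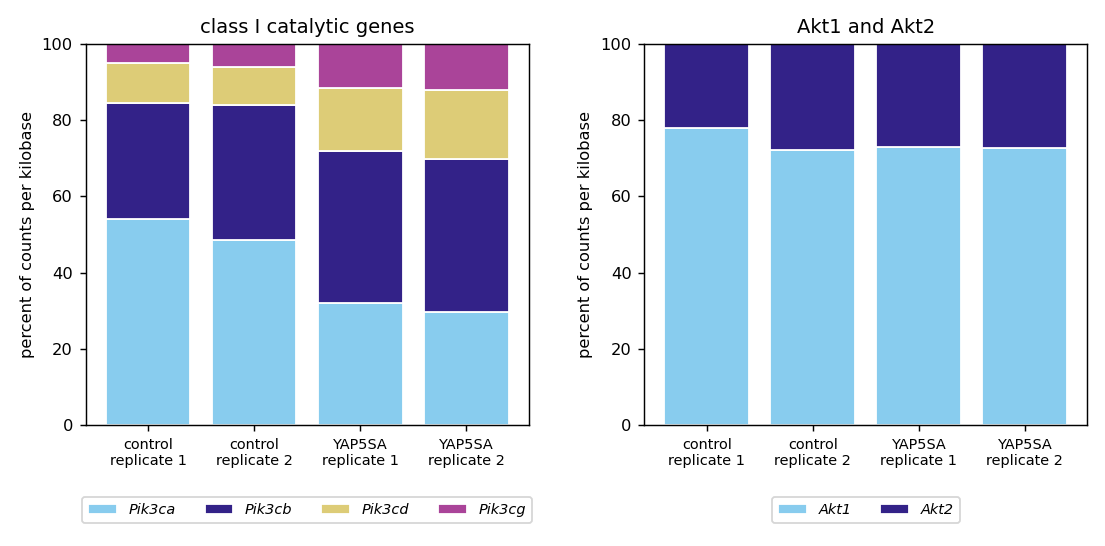
Share of counts per kilobase of exon (vertical axes, percent) held by each class I catalytic gene, and by Akt1 and Akt2 of the sum of both, in the 4 libraries. The Pik3ca segment shrinks from 54.0% and 48.7% in control to 32.1% and 29.6% in YAP5SA, and the Akt1 segment is larger than that of Akt2 in every library.

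Markers of leukocytes were higher in the same libraries as Pik3cd and Pik3cg. Of 8 leukocyte markers, 6 rose and 0 fell, beside 3.12% and 0.999% of all tested genes. All 8 had YAP5SA above control without overlap, as did 28.1% of all tested genes. The log2 fold changes of the 8 ran from 1.32 to 2.32, with a median of 1.64. Of 8 macrophage markers 5 rose and 0 fell, from 0.71 to 1.89, with a median of 1.54. With 1 library left out, the leukocyte median ran from 1.55 to 1.88 and the macrophage median from 1.36 to 1.67. The numbers of markers that passed changed with the library left out, as did those over all genes. No leukocyte or macrophage marker was at 0 in any library. Lcp1, which encodes an actin-bundling protein of blood cells, rose from 77.0 and 98.3 CPM in control to 427 and 447 CPM in YAP5SA. Vav1, a signaling exchange factor gene of blood cells, rose from 8.15 and 10.8 CPM to 29.0 and 31.4 CPM. The log2 fold changes of Pik3cd (1.35) and Pik3cg (1.72) lie inside the range of the leukocyte markers, and that of Pik3cb (0.88) lies below all 8 of them, though inside the macrophage range. The 5 lymphocyte markers summed to 9.06 and 2.11 CPM in control and 1.48 and 1.44 CPM in YAP5SA, with Cd3g and Ms4a1 at 0 in control replicate 1 and Cd79b at 0 in YAP5SA replicate 2. The part of leukocytes in the levels of Pik3cd, Pik3cg and Pik3cb was not tested.

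**Figure D4:**
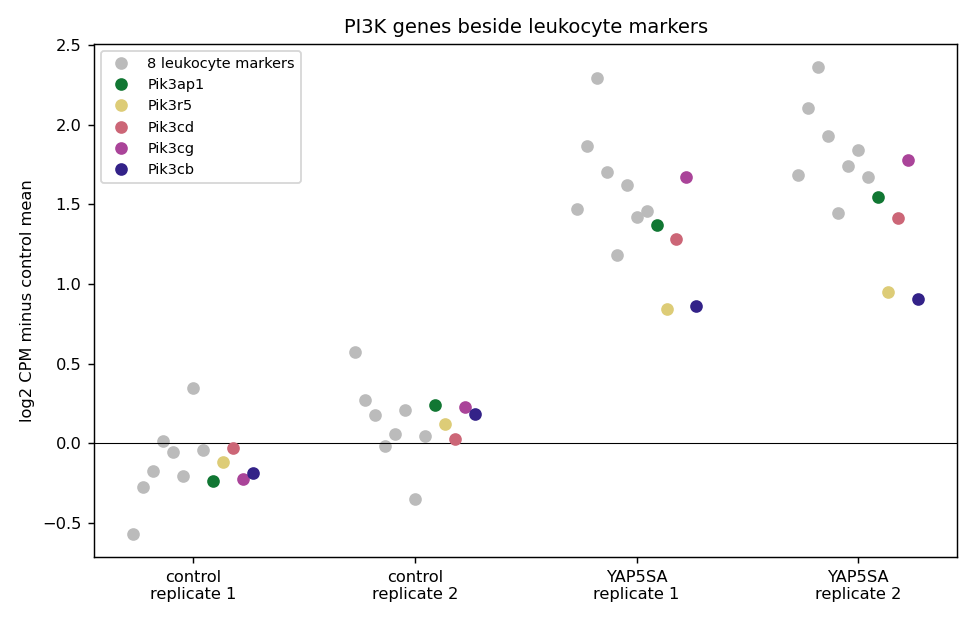
Log2 CPM minus the control mean (vertical axis) in the 4 libraries for 8 leukocyte markers (grey), Pik3cd, Pik3cg, Pik3cb, Pik3r5 and Pik3ap1. In YAP5SA replicate 1 Pik3cd and Pik3cg lie among the grey points, in replicate 2 Pik3cd lies just below the lowest of them, and Pik3cb and Pik3r5 lie below them in both.

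Other genes of the pathway were taken from 6 lists. Of the 87 members that could be tested, 3 rose and 3 fell. That is 3.45% in each direction, beside 3.12% of all genes upward and 0.999% downward, and the median log2 fold change was -0.10, which turned to 0.09 without control replicate 1. Without control replicate 2 the median was -0.15. The numbers of pathway genes that rose and fell changed with the library left out, as did those over all genes.

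Among 9 tested genes for other PI3K subunits and their adaptors, Pik3ap1 rose and Pik3c2b fell. Pik3ap1 encodes BCAP, an adaptor that brings PI3K to receptors of B cells and myeloid cells. It went from 7.79 and 10.8 CPM in control to 23.7 and 26.8 CPM in YAP5SA (log2 fold change 1.45, SE 0.241, edgeR adjusted p = 0.0433), and its call was lost in 4 of 12 alternatives. Pik3c2b, which encodes a class II PI3K, fell from 81.4 and 88.03 CPM to 34.2 and 32.0 CPM (log2 fold change -1.36, SE 0.162, edgeR adjusted p = 0.0284). Its call was lost in 2 of 12 alternatives. For both genes the groups were farther apart than the libraries within a group. Pik3r5, which encodes the p101 regulatory partner of the gamma subunit, measured 7.61 and 8.99 CPM in control and 14.8 and 15.9 CPM in YAP5SA (log2 fold change 0.89, edgeR adjusted p = 0.0904). Pik3r3, a further regulatory subunit gene, had a log2 fold change of -0.54, and Pik3ip1, whose product inhibits PI3K, one of -0.93 (edgeR adjusted p = 0.143 and 0.161).

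Of 11 genes for phosphatases that act on the lipid product or on AKT, Inppl1 rose and Inpp5j fell. Their median log2 fold change was -0.33, and it was -0.18 without control replicate 1 and -0.13 without control replicate 2. Inppl1 encodes SHIP2, which removes a phosphate from the lipid product. It went from 136 and 168 CPM in control to 308 and 346 CPM in YAP5SA (log2 fold change 1.11, SE 0.200, edgeR adjusted p = 0.0493). Its call was lost in 6 of 12 alternatives, the stricter filter among them. Inpp5j, another phosphatase gene of this family, fell from 24.5 and 38.9 CPM to 4.45 and 6.61 CPM (log2 fold change -2.51, SE 0.336, edgeR adjusted p = 0.0321). The Inpp5j call was lost in 2 of 12 alternatives. Inpp5d, which encodes SHIP1, the blood cell relative of SHIP2, measured 45.4 and 26.7 CPM in control and 74.6 and 80.0 CPM in YAP5SA (edgeR adjusted p = 0.0935).

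Of 17 receptor and adaptor genes 0 passed with edgeR or limma-voom and 1 fell with DESeq2, beside 501 of the 17715 tested genes. At an unadjusted p under 0.05 (edgeR), 1 was higher and 2 lower, beside 12.7% and 10.9% of all tested genes. Kit had the smallest adjusted p, at 23.0 and 13.1 CPM in control and 7.08 and 7.82 CPM in YAP5SA (log2 fold change -1.28, edgeR adjusted p = 0.0928). Grb10, which encodes an adaptor that restrains the insulin receptor, had a log2 fold change of -0.56, Erbb2 one of 0.46, Igf1r one of 0.45 and Irs1, the insulin receptor substrate gene, one of 0.78. Of 16 tested genes for PDK1, the mTOR complexes, TSC and SGK kinases, 0 passed with edgeR or limma-voom and 1 fell with DESeq2. Of the 16, 2 were higher and 0 lower at an unadjusted p under 0.05 (edgeR), beside the same 12.7% and 10.9%. Pdpk1, which encodes the kinase that activates AKT, measured 115 and 124 CPM in control and 130.3 and 129 CPM in YAP5SA (log2 fold change 0.12, edgeR adjusted p = 0.693). Prr5 and Prr5l, which encode partners of mTOR complex 2, had log2 fold changes of 1.01 and 0.98, and Deptor, which encodes an mTOR inhibitor, one of 0.99 (edgeR adjusted p from 0.159 to 0.262).

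Downstream of AKT, 0 of 19 substrate and effector genes passed with edgeR, DESeq2 or limma-voom. Of the 19, 0 were higher and 2 lower at an unadjusted p under 0.05 (edgeR), beside 12.7% and 10.9% of all tested genes. Pfkfb2, which encodes a glycolytic regulator that AKT phosphorylates in the heart, came closest, at 33.0 and 38.2 CPM in control and 19.5 and 18.9 CPM in YAP5SA (log2 fold change -0.89, SE 0.177, edgeR adjusted p = 0.0583). AKT also phosphorylates FoxO transcription factors and keeps them out of the nucleus. Of 15 genes known as FoxO targets, Cited2 rose and Bnip3 fell. The median log2 fold change was -0.47 beside -0.06 over all genes. It was -0.16 without control replicate 1 and -0.57 without control replicate 2. Leaving out YAP5SA replicate 1 gave -0.66, and leaving out YAP5SA replicate 2 gave -0.41. In control replicate 1 the 15 genes summed to 2055 CPM, against 1051 CPM in control replicate 2 and 1188 and 889 CPM in YAP5SA. The largest part of the difference between the controls came from Txnip, at 762 and 160 CPM in control and 203 and 135 CPM in YAP5SA. Bnip3, which encodes a mitophagy and cell death protein, fell from 98.6 and 55.0 CPM to 20.7 and 22.2 CPM (log2 fold change -1.84, SE 0.308, edgeR adjusted p = 0.0437). The Bnip3 call was lost in 2 of 12 alternatives. Cited2, which encodes a co-regulator of transcription, went from 47.4 and 33.7 CPM to 99.7 and 91.0 CPM (log2 fold change 1.23, SE 0.217, edgeR adjusted p = 0.0477), and its call was lost in 5 of 12 alternatives, the stricter filter among them. Sesn1, Cat and Fbxo32 had log2 fold changes of -0.73, -0.94 and -0.76 without passing. Of the FoxO genes themselves, Foxo6 had the smallest adjusted p (0.175, edgeR), at 6.43 and 1.98 CPM in control and 1.28 and 1.29 CPM in YAP5SA.

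**Figure D5:**
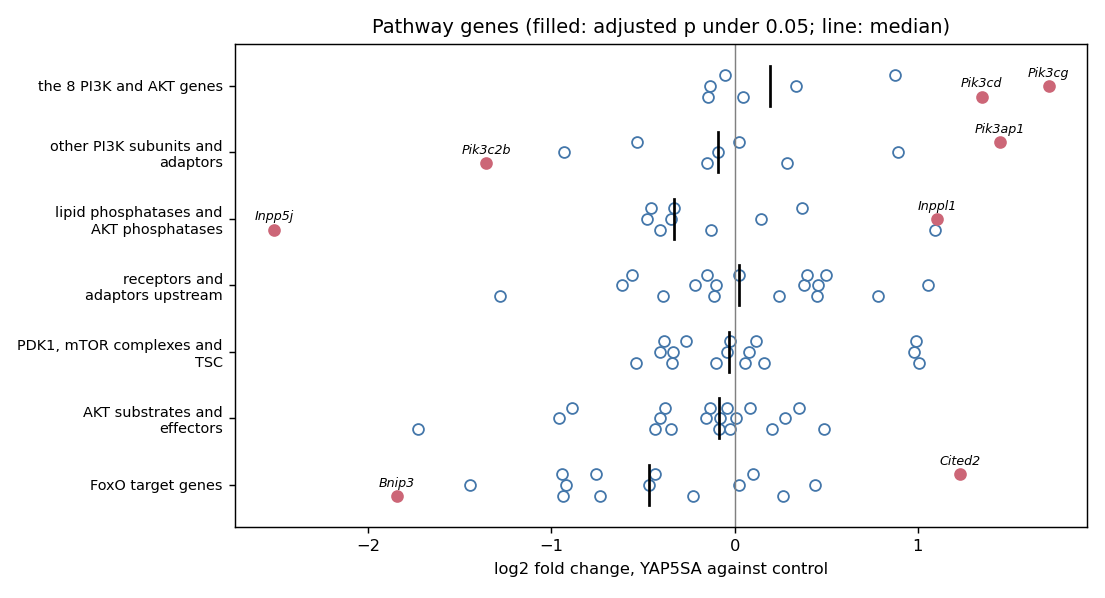
Log2 fold change (horizontal axis) of the 8 genes and of the tested members of the 6 pathway lists, 1 circle per gene. Filled circles with names are genes past the threshold, and black lines are medians. The FoxO target median of -0.47 moves to -0.16 without control replicate 1 and to -0.57 without control replicate 2.

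Genes with the profile most like that of Pik3cb over the 4 libraries were Iqsec1, Depdc5, Pvrl3, Pprc1 and Irgm2. They were chosen from 12174 tested genes with a mean of at least 5 CPM, by the Euclidean distance of centred log2 CPM, which ran from 0.0624 to 0.0721. Iqsec1, for example, measured 72.7 and 89.9 CPM in control and 152 and 153 CPM in YAP5SA. For Akt1 the nearest were Lbp, Gps2, Wdr47, Rpl30 and Rbsn, at distances from 0.0197 to 0.0453. These are descriptions over 4 libraries.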

How the data were processed

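RNA of PCM1-bound nuclei was sequenced from 4 libraries, 2 per group, with a stranded kit after removal of ribosomal RNA, per the labels' protocols. The authors deposited raw counts per gene symbol, not normalized, after mapping with STAR to mm10, per the labels' protocols, which also name DESeq2. The sources used here do not give the counting program, its strand setting or the annotation.

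Genes were kept by filterByExpr (minimum count 10), scaled by TMM and tested in edgeR 4.0.16 (R 4.3.3) by quasi-likelihood, without a replicate block, with Benjamini-Hochberg adjustment and a threshold of 0.05. The SE was taken from the log2 fold change and the F statistic, and 95% intervals use the total degrees of freedom of that fit. The pipeline was tested on simulated data that gave both groups the same spread per gene, unlike the replicate differences reported above. Alternatives were DESeq2 1.42.0, limma-voom (limma 3.58.1), RLE scaling, library totals, no filter, a minimum count of 50, a replicate block and leaving out each library. Crossed replicate numbers, and ratios, marker counts and list medians without each library, were added after seeing the data. No replicate pair was identical (mean chi-square per gene of 59.8 in control and 15.1 in YAP5SA). Positions and exon lengths came from GENCODE M21, promoters from RefSeq (all 8 genes matched).

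The genes, lists and markers were chosen with earlier results of these data known. From each list up to 6 genes with the smallest adjusted p could be named, and Pdpk1 always. Txnip was named after its values were seen, for its part in the FoxO target sum. Some genes of these lists are not reported here. Lcp1 and Vav1 were picked as examples after their values were seen. Nothing in the labels ties replicates to separate animals, and p-values then cover only the spread of these libraries, possibly a technical one.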

Additional observations from a re-analysis of the deposited data

How the results depend on the processing

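Over 12 alternatives each, 82 of 96 values of the 8 genes kept their direction and their side of the threshold. Signs turned for Pik3r2 with DESeq2 (0.00049) and when libraries were left out (-0.20 to 0.18). They also turned for Akt1 when libraries were left out (-0.32 to 0.11) and for Akt2 with the stricter filter (-0.0018). The number of the 8 genes that rose ran from 0 to 4 when 1 library was left out. Over all genes, those higher and lower numbered 1069 and 527 with DESeq2, 1727 and 1689 with no filter, and from 27 to 3749 and from 0 to 3554 when 1 library was left out. With the replicate block they were 321 and 112, and with crossed numbers as the block 328 and 103. The replicate numbers share only a number (correlation of same-numbered deviations -0.124, across genes), and under either block Pik3cd and Pik3cg passed, and Pik3ap1, Inppl1 and Cited2 did not. Pathway genes that rose numbered 9 with no filter, 1 with the stricter filter, 0 under the replicate block, 0 under the crossed block and 0 to 21 when 1 library was left out. Those that fell numbered 5 with DESeq2, 15 with no filter and 0 to 29 when 1 library was left out. The causes were not tested. Fits that left a group with 1 library took the spread from the other group. The change in the log2 ratio of Akt2 to Akt1 turned sign when libraries were left out (-0.046 to 0.39), and the other 3 ratios kept theirs; with few libraries, small fold changes cannot be separated from replicate spread.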
